A study of Homo sapiens with 30 samples.

Results

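Notch signalling genes were followed in Rh30, an established cell line of alveolar rhabdomyosarcoma, a muscle-like tumour, whose PAX3-FOXO1 fusion joins the genes of both transcription factors. The genes are the receptors NOTCH1, NOTCH2 and NOTCH3, the ligands JAG1, JAG2 and DLL1, the transcriptional repressors HES1, HES6 and HEY1, and the feedback regulator NRARP. They were chosen by symbol, with earlier results of these data known. All 10 were found among the 23262 genes of the time-course tables and the 23261 genes of the clone table. A further 53 genes of the same pathway, from sugar transferases to corepressors, were read beside them.

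RNA sequencing covered 30 samples in 15 groups of 2. A time course held 20 of them. In 1 line the fusion carries an FKBP degradation tag (PAX3-FOXO1-FKBP), in the other the tag sits on FOXO1 (FOXO1-FKBP), and each was sampled in DMSO and after 2, 6, 24 and 72 h in 500 nM dTAG, a small molecule that directs the tagged protein to degradation. The other 10 libraries came from the PAX3-FOXO1-FKBP clones 4, 10, 11 and 12 and from parental Rh30, all labelled DMSO and none given dTAG. Each clone is a single clone, so a clone's own history and the tag cannot be told apart. Which clone, if any of these 4, gave the time course, and whether every copy of the fusion is tagged, the sources used here do not state. Protein loss was not measured here. Separate cultures are not stated for the paired samples of a group, and the spread that p-values measure may be technical.

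Notch receptors are single-pass membrane proteins that bind ligands of the Jagged and Delta families on a neighbouring cell. Binding leads to proteolytic release of the intracellular domain, which enters the nucleus, joins the DNA-binding protein RBPJ (also called CSL) and switches on targets such as the HES and HEY repressors and NRARP. In skeletal muscle precursors active Notch is known to hold back differentiation. HES6 is the odd one of its family: it is known to oppose HES1 and, in muscle and nerve precursors, to promote differentiation.

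The authors pooled both samples of each time-course condition into 1 column, so the time course has 10 columns and no replicate error. Columns held 25863153 to 30466522 estimated counts, and clone libraries 17746684 to 26834005 counts. Levels are given as CPM, counts scaled with TMM factors to a common library size within each table, and the time-course and clone tables were scaled separately. All 6 rhabdomyosarcoma and myogenic markers (MYOD1, MYOG, DES, FGFR4, PAX3 and FOXO1) held at least 10 counts in every column and library. Their summed level was 3228 to 4769 CPM in the PAX3-FOXO1-FKBP line and 3281 to 3801 CPM in the FOXO1-FKBP line. The sum hides a split in the PAX3-FOXO1-FKBP line. There MYOG and DES rose by the trend test described below (fitted log2 change 1.91 and 1.51). MYOD1, FGFR4 and PAX3 had negative fitted changes (-0.51, -0.77 and -0.77) and FOXO1 a positive one (0.52), none of which passed. The 2 h column of the PAX3-FOXO1-FKBP line stands apart: 10 of 10 B lineage and leukocyte markers held at least 10 counts there, with a summed level of 75.1 CPM, against 0.70 to 2.95 CPM in the other 9 columns, where 2 to 6 of the 10 markers were at 0. The 6 endothelial markers summed to 6.76 to 14.4 CPM in the PAX3-FOXO1-FKBP line, lowest at 72 h, and to 14.1 to 19.6 CPM in the FOXO1-FKBP line.

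The repressors HES6 and HEY1 rose over the time course once PAX3-FOXO1-FKBP cells had received dTAG, and the receptors had no trend that passed the test. HES1, HES6 and HEY1 were at least 2-fold above DMSO at 72 h. In the FOXO1-FKBP line no member reached 2-fold at any time and none had a trend that passed. The trend is a slope per log2(hours + 1), with DMSO placed at 0 h, from the quasi-likelihood test of edgeR. Each line has a single DMSO column and none for each time, so time in culture cannot be told apart from hours of dTAG. Calls needed an adjusted p under 0.05, by the Benjamini-Hochberg method across the whole table. The p-value of a slope reflects how far single pooled columns lie off the fitted line, not replicate error, with 3 residual degrees of freedom in a line and 6 for the difference between lines. Bulk RNA cannot tell fewer cells expressing a gene from less RNA in each cell.

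Of the 9 members tested in the PAX3-FOXO1-FKBP line, 2 rose and 0 fell. Over all 14233 genes tested, 4.59% passed, 2.43% upward. With the tag on FOXO1, 0 of 10 members and 0% of 13848 genes in that line passed with edgeR, 638 genes had an unadjusted p under 0.05, and DESeq2 called 1. The difference in slope between the lines passed for 2 of 10 members, both steeper in the PAX3-FOXO1-FKBP line, and for 2.02% of 14489 genes. Members were chosen with earlier results of these data known, so their shares beside those of all genes are a description and no test of the list. By size, 3 of the 9 members with a mean of at least 50 normalised counts were at least 2-fold higher at 72 h in the PAX3-FOXO1-FKBP line, against 3.31% of 12250 genes. At 6 h 1 member was (HEY1), against 0.555% of genes. At 2 and 24 h 0 members were, where 0.359% and 1.31% of genes were. The FOXO1-FKBP line had 0 members past 2-fold in either direction at 2, 6, 24 and 72 h, against 0.0581%, 0.0415%, 0.199% and 0.398% of 12053 genes. The median log2 change of these 9 members at 72 h was 0.49, that of the measured pathway genes -0.17 and that of all genes -0.01.

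**Figure D1:**
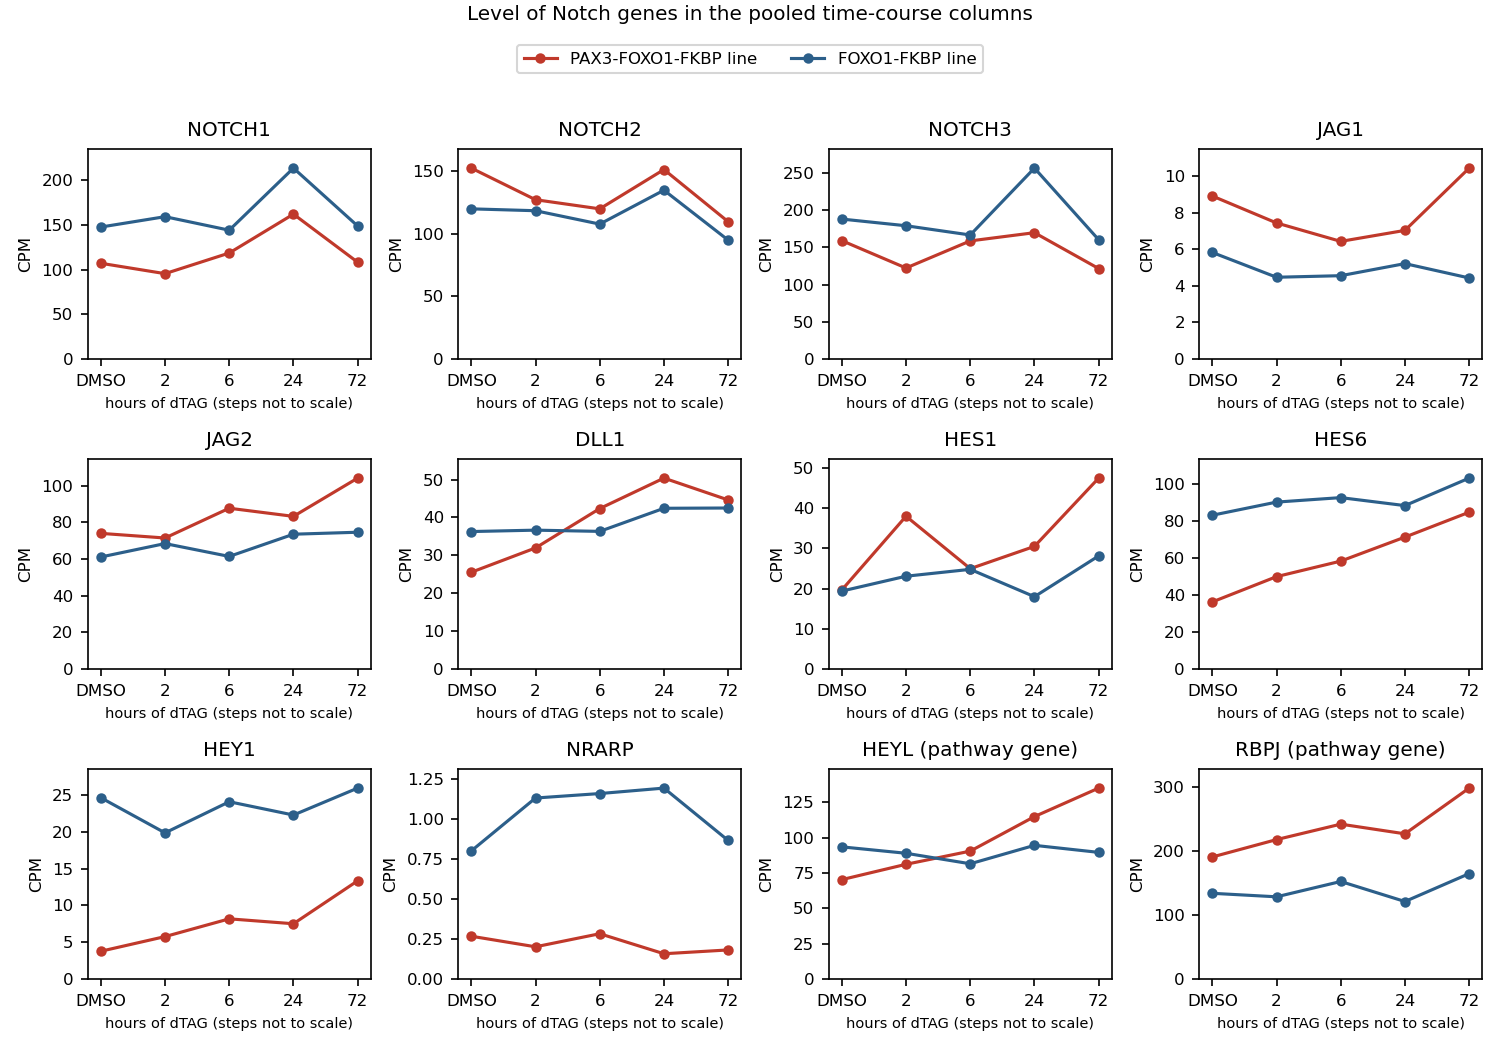
Level in CPM (y axis, from 0) against hours of dTAG (x axis, steps not to scale, DMSO at the left) for the 10 members, HEYL and RBPJ. Each point is 1 pooled column, red for the PAX3-FOXO1-FKBP line and blue for the FOXO1-FKBP line. HES6, HEY1 and HEYL climb in the red line, HES6 to 84.9 CPM at 72 h, while NOTCH1 peaks at 24 h in both.

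HES6 climbed at every step in the PAX3-FOXO1-FKBP line, with 36.3 CPM in DMSO and then 50.01, 58.4, 71.4 and 84.9 CPM at 2, 6, 24 and 72 h. The FOXO1-FKBP line held 83.2 CPM in DMSO and then 90.3, 92.7, 88.4 and 103.3 CPM. The PAX3-FOXO1-FKBP line thus began below the other line and at 72 h lay close to that line's DMSO column. The fitted log2 change over the full course was 1.20 ± 0.14 (SE) in the PAX3-FOXO1-FKBP line (edgeR adjusted p = 0.00428) and 0.21 ± 0.12 in the FOXO1-FKBP line (adjusted p = 0.862). The difference was 0.97 ± 0.17 (edgeR adjusted p = 0.0158). It missed the threshold without the 2 h columns (0.100), the 6 h columns (0.0553) or the 72 h columns (0.107), at differences of 0.89 to 0.99. The rise within the PAX3-FOXO1-FKBP line passed whichever single dTAG column was left out (adjusted p 0.00213 to 0.0433).

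HEY1, a repressor of the Hairy/E(spl)-related family, had the steepest trend among the members. It held 3.78 CPM in DMSO in the PAX3-FOXO1-FKBP line and then 5.77, 8.18, 7.51 and 13.3 CPM. The FOXO1-FKBP line held 24.6 CPM in DMSO and then 19.8, 24.1, 22.3 and 25.9 CPM. Even its 72 h level in the PAX3-FOXO1-FKBP line stayed below every column of the FOXO1-FKBP line. At 72 h HEY1 was 3.48-fold above DMSO, a log2 change of 1.80 (95% counting interval 1.52 to 2.13, which covers counting error only). The fitted change was 1.61 ± 0.28 (edgeR adjusted p = 0.0169) in the PAX3-FOXO1-FKBP line and 0.09 ± 0.16 in the FOXO1-FKBP line (0.943). The difference of 1.51 ± 0.33 passed narrowly (edgeR adjusted p = 0.0455). Without the 72 h column the fitted change was 1.04 and no longer passed (0.279), and the difference between the lines was lost without the 2 h (0.112), 6 h (0.0682) or 72 h (0.433) columns.

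HES1, the classical Notch-induced repressor, was uneven. Its levels in the PAX3-FOXO1-FKBP line were 19.6 CPM in DMSO and 37.9, 24.9, 30.5 and 47.4 CPM at the 4 times, and in the FOXO1-FKBP line 19.4 CPM in DMSO and 23.1, 24.8, 17.97 and 28.1 CPM. The lines started level, and the 2 h, 24 h and 72 h columns of the PAX3-FOXO1-FKBP line lay above every column of the other. The log2 change was 0.95 at 2 h (95% counting interval 0.81 to 1.09) and 1.27 at 72 h (1.13 to 1.41), with 0.34 at 6 h between them. The 2 h value is from the column with the B lineage and leukocyte RNA, whose part in it was not tested. The trend over 5 columns of the PAX3-FOXO1-FKBP line did not pass (fitted change 0.90 ± 0.33, edgeR adjusted p = 0.212) and passed without the 2 h column (1.21, adjusted p = 0.0162). That of the FOXO1-FKBP line did not pass either (0.28 ± 0.24, edgeR adjusted p = 0.881). It also passed as rising without 1 column, that of 24 h (0.48, adjusted p = 0.0270), where 1204 genes did. The difference between the lines was 0.62 ± 0.47 (adjusted p = 0.705).

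HEYL, which belongs to the same repressor family, was 1 of the 53 further pathway genes and the only one of 50 tested whose trend or difference passed. Over all genes 4.59% of trends in that line and 2.02% of differences passed, so this count is no higher than the background. It held 70.3 CPM in DMSO in the PAX3-FOXO1-FKBP line and then 81.1, 90.4, 114.8 and 134.9 CPM, while the FOXO1-FKBP line held 93.4 CPM in DMSO and 88.9, 81.5, 94.5 and 89.5 CPM after it. The fitted change was 0.98 ± 0.13 (edgeR adjusted p = 0.00664) in the PAX3-FOXO1-FKBP line and -0.03 ± 0.13 in the FOXO1-FKBP line, and the difference was 0.99 ± 0.17 (edgeR adjusted p = 0.0140). Without the 72 h column the trend was 0.72 and missed the threshold (0.0814), and the difference was lost without the 2 h (0.101) or the 72 h columns (0.206).

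**Figure D2:**
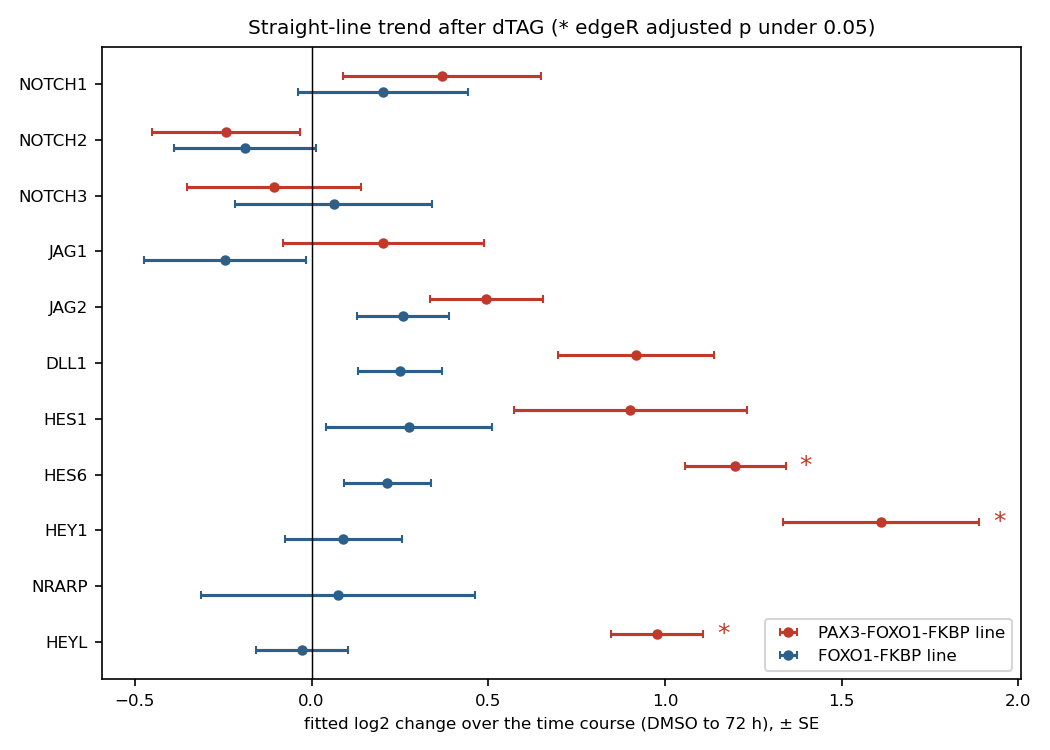
Fitted log2 change from DMSO to 72 h (x axis) with its standard error (bars) for each member and HEYL (y axis), red for the PAX3-FOXO1-FKBP line and blue for the FOXO1-FKBP line. Stars mark an edgeR adjusted p under 0.05, which HES6 (1.20), HEY1 (1.61) and HEYL (0.98) reached in the PAX3-FOXO1-FKBP line. NRARP was too low to be tested in that line.

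Promoters of HES1, HES6 and HEYL are shown to compare their letters around the transcription start. Each is 300 bases long, 250 before and 50 after the start, from RefSeq on GRCh38.p14, written 5′ to 3′ on the strand of the gene. RefSeq promoters were matched by symbol for 8 of the 10 members, and not for DLL1 and HEY1. Capitals mark the RBPJ motif GTGGGAA on either strand and the myogenic-type E-box CAGCTG, which is the same on both strands.
HES1 (chr3:194135898-194136197, plus strand): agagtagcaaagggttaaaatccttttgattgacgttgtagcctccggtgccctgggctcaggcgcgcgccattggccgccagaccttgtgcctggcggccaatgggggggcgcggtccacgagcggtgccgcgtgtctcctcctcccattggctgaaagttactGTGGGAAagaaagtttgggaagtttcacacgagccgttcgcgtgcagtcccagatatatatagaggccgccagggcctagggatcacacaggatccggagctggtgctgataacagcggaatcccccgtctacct
HES6 (chr2:238239989-238240288, minus strand): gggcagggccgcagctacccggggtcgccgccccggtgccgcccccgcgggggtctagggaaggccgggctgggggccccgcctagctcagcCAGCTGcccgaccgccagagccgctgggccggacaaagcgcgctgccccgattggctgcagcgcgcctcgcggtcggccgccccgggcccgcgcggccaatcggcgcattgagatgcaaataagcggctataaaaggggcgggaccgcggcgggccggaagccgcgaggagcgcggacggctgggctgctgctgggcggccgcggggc
HEYL (chr1:39639594-39639893, minus strand): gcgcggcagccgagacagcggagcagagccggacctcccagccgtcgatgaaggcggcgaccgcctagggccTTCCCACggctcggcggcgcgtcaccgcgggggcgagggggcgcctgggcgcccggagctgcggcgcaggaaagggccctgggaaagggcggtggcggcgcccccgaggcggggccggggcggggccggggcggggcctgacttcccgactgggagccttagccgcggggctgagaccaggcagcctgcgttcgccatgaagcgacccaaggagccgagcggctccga
The HES1 window holds GTGGGAA once, starting 85 bases before the start. HEYL holds it once on the opposite strand, 178 bases before the start. The HES6 window holds no GTGGGAA and has CAGCTG 158 bases before the start. Over all 27305 promoters of this length, 6.281% hold GTGGGAA and 17.74% hold CAGCTG. Among members with a promoter, 1 of 8 (HES1) holds GTGGGAA, and among the further pathway genes 5 of 43 do, namely HES4, HES5, HEY2, HEYL and SPEN. The N-box CACNAG, to which HES proteins bind, was found 4 times in the HES1 window on both strands together. It was found 0 times in those of HES6 and HEYL, and in 37.98% of the same 27305 promoters. A match is a run of letters and no measure of binding.

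Among the ligands, DLL1 had the largest change, though its trend did not pass. DLL1, a Delta-type ligand, held 25.6 CPM in DMSO in the PAX3-FOXO1-FKBP line and then 32.0, 42.4, 50.4 and 44.6 CPM, and in the FOXO1-FKBP line 36.3 CPM in DMSO and then 36.7, 36.3, 42.4 and 42.5 CPM. It stopped short of 2-fold, with a log2 change of 0.98 at 24 h (95% counting interval 0.85 to 1.11). The fitted change was 0.92 ± 0.22 (edgeR adjusted p = 0.0603) in the PAX3-FOXO1-FKBP line and 0.25 ± 0.12 in the FOXO1-FKBP line (0.862), and the difference was 0.66 ± 0.26 (adjusted p = 0.307). The trend in the PAX3-FOXO1-FKBP line passed with DESeq2 (adjusted p = 0.00443), with edgeR on ranked time (0.0499) and without the 24 h (0.0435) or 72 h (0.0415) column. It missed without the 2 h (0.111) or 6 h (0.0614) column, without a filter (0.0544) and with scaling by column totals (0.101).

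JAG2, a Jagged-type ligand, held 74.0 CPM in DMSO in the PAX3-FOXO1-FKBP line and then 71.5, 87.7, 83.3 and 104.2 CPM. The FOXO1-FKBP line held 61.1 CPM in DMSO and then 68.5, 61.4, 73.6 and 74.6 CPM. Both lines were highest at 72 h, and neither trend passed (fitted change 0.49, edgeR adjusted p = 0.154, and 0.26, adjusted p = 0.862). JAG1, the other Jagged-type ligand, was far scarcer, at 6.42 to 10.4 CPM in the PAX3-FOXO1-FKBP line and 4.43 to 5.82 CPM in the FOXO1-FKBP line, and its trends did not pass.

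NOTCH1 was highest at 24 h in both lines. It held 107.0 CPM in DMSO in the PAX3-FOXO1-FKBP line and then 95.4, 118.5, 161.9 and 108.2 CPM, and in the FOXO1-FKBP line 147.5 CPM in DMSO and then 159.0, 143.9, 213.3 and 148.6 CPM. Its log2 change at 24 h was thus 0.60 in the PAX3-FOXO1-FKBP line and 0.53 in the FOXO1-FKBP line. NOTCH3 stood at 169.6 CPM at 24 h in the PAX3-FOXO1-FKBP line, against 159.0 CPM in its DMSO column, and at 256.3 CPM in the FOXO1-FKBP line, against 187.9 CPM in DMSO. NOTCH2 was lowest at 72 h in both lines, at 109.5 CPM in the PAX3-FOXO1-FKBP line, where DMSO held 152.2 CPM, and 94.8 CPM in the FOXO1-FKBP line, where DMSO held 119.7 CPM. Fitted changes of the 3 receptors lay between -0.24 and 0.37, with edgeR adjusted p of 0.558 to 0.973.

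Gene length and GC content moved with these columns. NOTCH1 and NOTCH3 lie at the 94.2 and 92.9 percentiles of transcript length and the 92.4 and 92.6 percentiles of GC content. In the FOXO1-FKBP line at 24 h the change across 11006 genes had a Spearman rho of 0.382 with GC content and 0.301 with length. Adjusted for both, the 24 h log2 change of NOTCH1 was 0.64 in the PAX3-FOXO1-FKBP line and 0.21 in the FOXO1-FKBP line, and that of NOTCH3 was 0.13 in the FOXO1-FKBP line, against 0.45 as measured. For NOTCH2 at 72 h the adjusted change was -0.31 in the PAX3-FOXO1-FKBP line, against -0.47 as measured, and -0.20 in the FOXO1-FKBP line, against -0.34. The same adjustment gave 1.05 for HES1 and 1.09 for HES6 at 72 h in the PAX3-FOXO1-FKBP line, against 1.27 and 1.22 as measured. For HES1 at 2 h in that line it gave 0.80, against 0.95. At 72 h in the FOXO1-FKBP line, rho was 0.488 with GC content and -0.503 with length. The adjusted changes there were 0.41 for HES1 and -0.012 for HES6, against 0.54 and 0.31 as measured. The slope tests were run on counts without this adjustment. NOTCH2 shares near-identical sequence with NOTCH2NL, which the tables list apart at 10.7% to 18.9% of the NOTCH2 count in the time course and 8.37% to 43.0% in the clone table, and the sources used here do not say how reads were split between them.

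**Figure D3:**
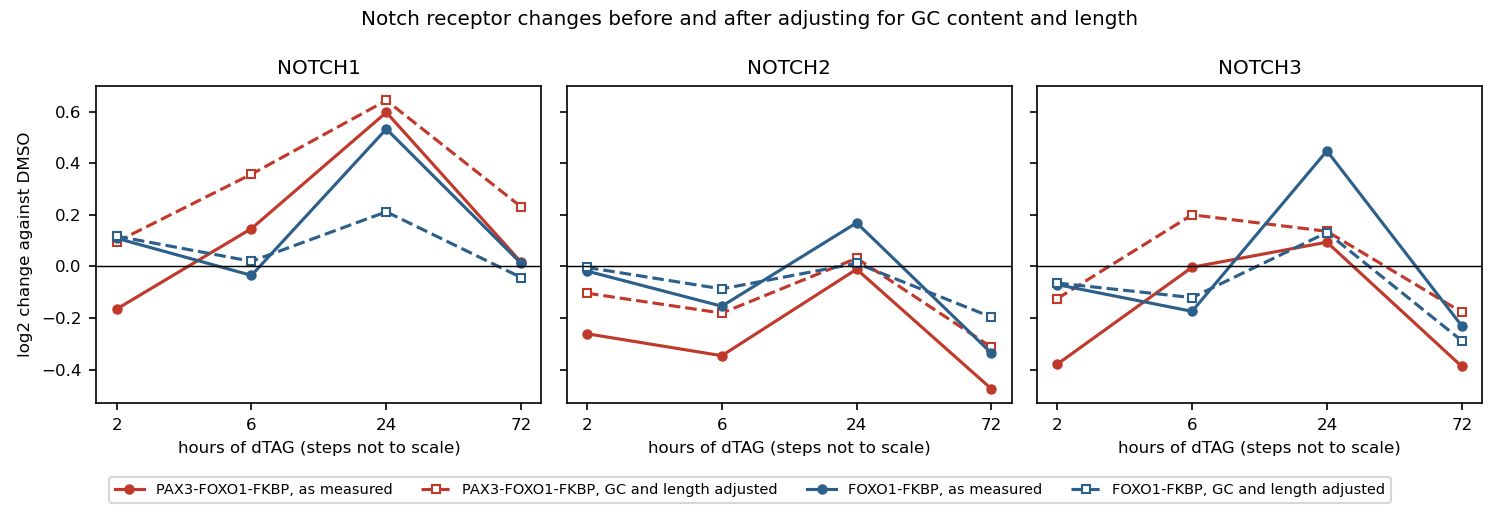
Log2 change against DMSO (y axis) at each time of dTAG (x axis, steps not to scale) for the 3 receptors. Filled points with solid lines are as measured and open squares with dashed lines are adjusted for GC content and length, red for the PAX3-FOXO1-FKBP line and blue for the FOXO1-FKBP line. At 24 h in the FOXO1-FKBP line NOTCH1 stands at 0.53 as measured and at 0.21 when adjusted.

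NRARP, a small ankyrin-repeat protein that Notch induces and that dampens the pathway, was near the floor. The PAX3-FOXO1-FKBP line held 8.3 counts in DMSO and 6.2, 8.3, 4.6 and 5.3 at the 4 times, too few to be tested, and the FOXO1-FKBP line 20.8 in DMSO and 29.5, 29.02, 31.7 and 22.3. Its trend was tested in the FOXO1-FKBP line (fitted change 0.075, edgeR adjusted p = 0.978), as was the difference between the lines (-0.61, edgeR adjusted p = 0.850), and neither passed. Per kilobase of transcript in DMSO, HES6 was the most abundant member in the PAX3-FOXO1-FKBP line (22.7 CPM per kb), before NOTCH3 (18.3), NOTCH2 (13.4), JAG2 (12.7), HES1 (12.4), NOTCH1 (11.5), DLL1 (8.05), HEY1 (1.65), JAG1 (1.499) and NRARP (0.15). In the FOXO1-FKBP line HES6 also came first at 52.0 CPM per kb and HEY1 stood at 10.7. With 1 pooled column each, neighbours such as JAG2 and HES1 cannot be ranked beyond error.

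Patterns over the 10 columns, centred within each line, were compared by Pearson's r over 11850 genes, as a description. All pairs share columns, depth and scaling. HES6 was most like MYOG, the muscle differentiation factor myogenin (r = 0.98), then FOXS1 and ABHD12. MYOG held 326 CPM in DMSO in the PAX3-FOXO1-FKBP line and then 483, 684, 998 and 1166 CPM, and 362 to 436 CPM in the 5 columns of the FOXO1-FKBP line. HEY1 was most like LMNA, which encodes lamin A/C, then TCF4 and RNF41 (r of 0.98 each), and DLL1 most like BMF, a pro-apoptotic BCL2 family gene (0.98). HES6 and HEY1 had r = 0.92 with each other, DLL1 and HES6 0.89, and NOTCH1 and NOTCH3 0.82. HES1 was led by ELP4 (0.98), JAG2 by the laminin receptor subunit ITGA7 (0.98), JAG1 by TRPS1 (0.93), NOTCH1 by SLC4A2 (0.97), NOTCH2 by GTF3C4 and NOTCH3 by ZMIZ1 (0.99 each).

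Without dTAG, the tagged clones differed from parental Rh30 in ligands, receptors, NRARP and, in 1 clone each, HES1 and HEY1. They also differed among themselves. The clone table has 2 libraries a group, tested with edgeR on all 10 libraries (5 residual degrees of freedom, adjusted over 14175 genes). Against parental, 4 of 10 members passed for clone 4, 5 for clone 10, 3 for clone 11 and 3 for clone 12. Over all genes 47.4%, 52%, 51.6% and 52.6% passed for these clones, so the members' share is at or under the background. Some difference among the 5 groups passed for 10 of 10 members and 83.1% of genes.

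The libraries of a clone lay further apart than those of parental cells. The median absolute log2 gap over 11472 genes was 0.27 for clone 4, 0.18 for clone 10, 0.24 for clone 11, 0.15 for clone 12 and 0.057 for parental cells. Between the libraries of a group the mean chi-square per gene was 13.99 to 51.3 for the clones and 1.84 for parental cells, where counting noise alone gives 1, so the parental libraries lie close to counting noise. Whether they are technical repeats is not stated. The signed gap, first library minus second, was also set against gene length and GC content. Its Spearman rho with length was 0.642 in clone 4 and 0.449 in clone 10. With GC content it was -0.629 in clone 11, where GC-rich genes tended to read higher in the second library. The libraries of clone 4 held 239.6 and 80.9 CPM of the long gene NOTCH2, and those of parental cells 105.7 and 104.3 CPM. In clone 11 the GC-rich genes NOTCH1 and NOTCH3 had absolute log2 gaps of 0.014 and 0.785. The part of length or GC content in the gaps of single genes was not tested.

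JAG1 moved in 3 clones and not in the same direction. Clone 4 held 21.8 and 10.3 CPM, clone 10 held 8.34 and 8.61 CPM, clone 11 held 3.19 and 2.60 CPM, clone 12 held 4.34 and 3.34 CPM, and parental cells held 8.91 and 8.96 CPM. Both libraries of clones 11 and 12 lay below parental, and both of clone 4 above it. The log2 fold change was 0.85 ± 0.29 in clone 4 (edgeR adjusted p = 0.0322), -1.61 ± 0.32 in clone 11 (0.00191) and -1.22 ± 0.31 in clone 12 (0.00741). The call in clone 4 was lost without its first library (0.17, adjusted p = 0.568), without either parental library (0.122 and 0.123) and with only the 4 libraries compared (0.141). That in clone 12 was lost without 1 of its libraries (0.0536).

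JAG2 was higher in clones 4 and 10, with 71.7 and 65.6 CPM for clone 4, 79.7 and 71.1 CPM for clone 10, 31.4 and 38.0 CPM for clone 11, 47.2 and 53.2 CPM for clone 12, and 44.2 and 43.7 CPM for parental cells. Its log2 fold change was 0.64 ± 0.14 in clone 4 (edgeR adjusted p = 0.00381) and 0.78 ± 0.14 in clone 10 (0.00118). DLL1 was low in clone 4 alone among the calls, with 13.7 and 13.8 CPM in clone 4, 27.8 to 35.6 CPM in the other clones, and 27.4 and 27.5 CPM in parental cells (log2 fold change -0.999 ± 0.15, edgeR adjusted p = 0.000568).

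HEY1 stood out in clone 12, with 14.7 and 12.4 CPM there, 2.84 to 5.86 CPM in the 6 libraries of the other clones, and 4.13 and 5.22 CPM in parental cells. Its log2 fold change in clone 12 was 1.53 ± 0.22 (edgeR adjusted p = 0.000353), and it was the only HES or HEY member called in that clone. HES1 passed in clone 10, with 16.3 and 25.97 CPM, against 14.6 and 12.5 CPM in parental cells (0.64 ± 0.21, edgeR adjusted p = 0.0257), but not without the second clone 10 library (0.23, adjusted p = 0.396), without either parental library (0.0628 and 0.168) or with only the 4 libraries compared (0.0580). HES1 in clone 4, at 9.08 and 9.43 CPM, missed the threshold and passed with DESeq2 (0.0428) and without a filter (0.0153). HES6 passed in 0 of 4 clones, at 39.1 to 87.5 CPM in the clones and 53.1 to 54.4 CPM in parental cells, though in clone 10 it passed without a filter (0.0207), with a replicate block (0.0387) and with only the 4 libraries compared (0.00217), and in clone 4 without its first library (0.0146).

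Of the receptors, NOTCH1 held 193.8 and 161.4 CPM in clone 10, 60.9 and 61.5 CPM in clone 11, and 93.9 and 94.1 CPM in parental cells. Its log2 fold change was 0.92 ± 0.20 in clone 10 (edgeR adjusted p = 0.00288) and -0.62 ± 0.20 in clone 11 (0.0217), the second lost on leaving out any 1 of the 4 libraries (0.0601 to 0.0822). NOTCH2 passed in clone 10, with 261.7 and 177.4 CPM there and 105.7 and 104.3 CPM in parental cells (1.06 ± 0.37, edgeR adjusted p = 0.0318), but not with DESeq2 (0.0724), without the first clone 10 library (0.189) or without either parental library (0.105 and 0.111). NOTCH3, at 80.3 to 268.3 CPM in the clones and 145.8 to 150.3 CPM in parental cells, passed in 0 clones. Alternatives called it in clone 10 (DESeq2, no filter and only the 4 libraries compared, adjusted p 0.00301 to 0.0409), in clone 12 (no filter and only the 4 libraries, 0.0277 and 0.000734) and in clone 4 without its first library (0.0173).

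NRARP passed as lower in all 4 clones, most firmly in clones 10 and 12. Clone 4 had 11 and 13 counts of it, clone 10 had 11 and 3, clone 11 had 16 and 12, clone 12 had 2 and 7, and parental cells had 43 and 46. Every clone library lay below both parental libraries, at 0.11 to 0.74 CPM against 1.55 to 1.63 CPM. The log2 fold change was -1.34 ± 0.45 for clone 4 (edgeR adjusted p = 0.0289), -2.28 ± 0.49 for clone 10 (0.00283), -1.18 ± 0.44 for clone 11 (0.0423) and -2.73 ± 0.53 for clone 12 (0.00158). DESeq2 did not call clone 4 (0.0865) or clone 11 (0.123), and edgeR lost both on leaving out any 1 of the 4 libraries compared (0.0544 to 0.118 for clone 4 and 0.0961 to 0.153 for clone 11). Over all genes 9.5% passed as lower in all 4 clones, so 1 of 10 members is near the background.

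RBPJ, the DNA-binding partner of the Notch intracellular domain, was also lower in all 4 clones. Clone 4 held 72.4 and 74.8 CPM of it, clone 10 held 79.9 and 78.2 CPM, clone 11 held 86.5 and 62.8 CPM, clone 12 held 69.0 and 72.9 CPM, and parental cells held 185.7 and 184.9 CPM. The log2 fold changes of -1.23 to -1.38 (edgeR adjusted p 8.52e-05 to 0.000148) passed under every alternative run. Over all genes 9.5% passed as lower in all 4 clones. In the time-course table RBPJ held 191 to 299 CPM in the PAX3-FOXO1-FKBP line and 121 to 165 CPM in the FOXO1-FKBP line, and its trends did not pass. RBPJ has processed pseudogenes, and the sources used here do not say how their reads were counted.

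Of the 49 further pathway genes tested in the clones, 12 were higher and 5 lower for clone 4, 18 and 7 for clone 10, 12 and 14 for clone 11, and 8 and 10 for clone 12. These shares are near or under those over all genes (47.4%, 52%, 51.6% and 52.6%). Lower in all 4 clones, as were 9.5% of all genes, were 2 of the 49, RBPJ and POGLUT1. POGLUT1, which adds O-glucose to Notch, stood at 8.40 to 13.9 CPM in the clones and 20.9 to 21.9 CPM in parental cells. Higher in all 4, as were 8.4% of all genes, were also 2 of the 49, NUMBL, a relative of the Notch antagonist NUMB (log2 fold changes 0.43 to 0.94), and DTX2, a Deltex-type ubiquitin ligase (0.44 to 0.70). LFNG, which modifies the sugars of Notch and alters its choice of ligand, passed as higher in clones 4, 10 and 12 (0.81, 0.87 and 0.86) and not in clone 11 (-0.16, edgeR adjusted p = 0.415).

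**Figure D4:**
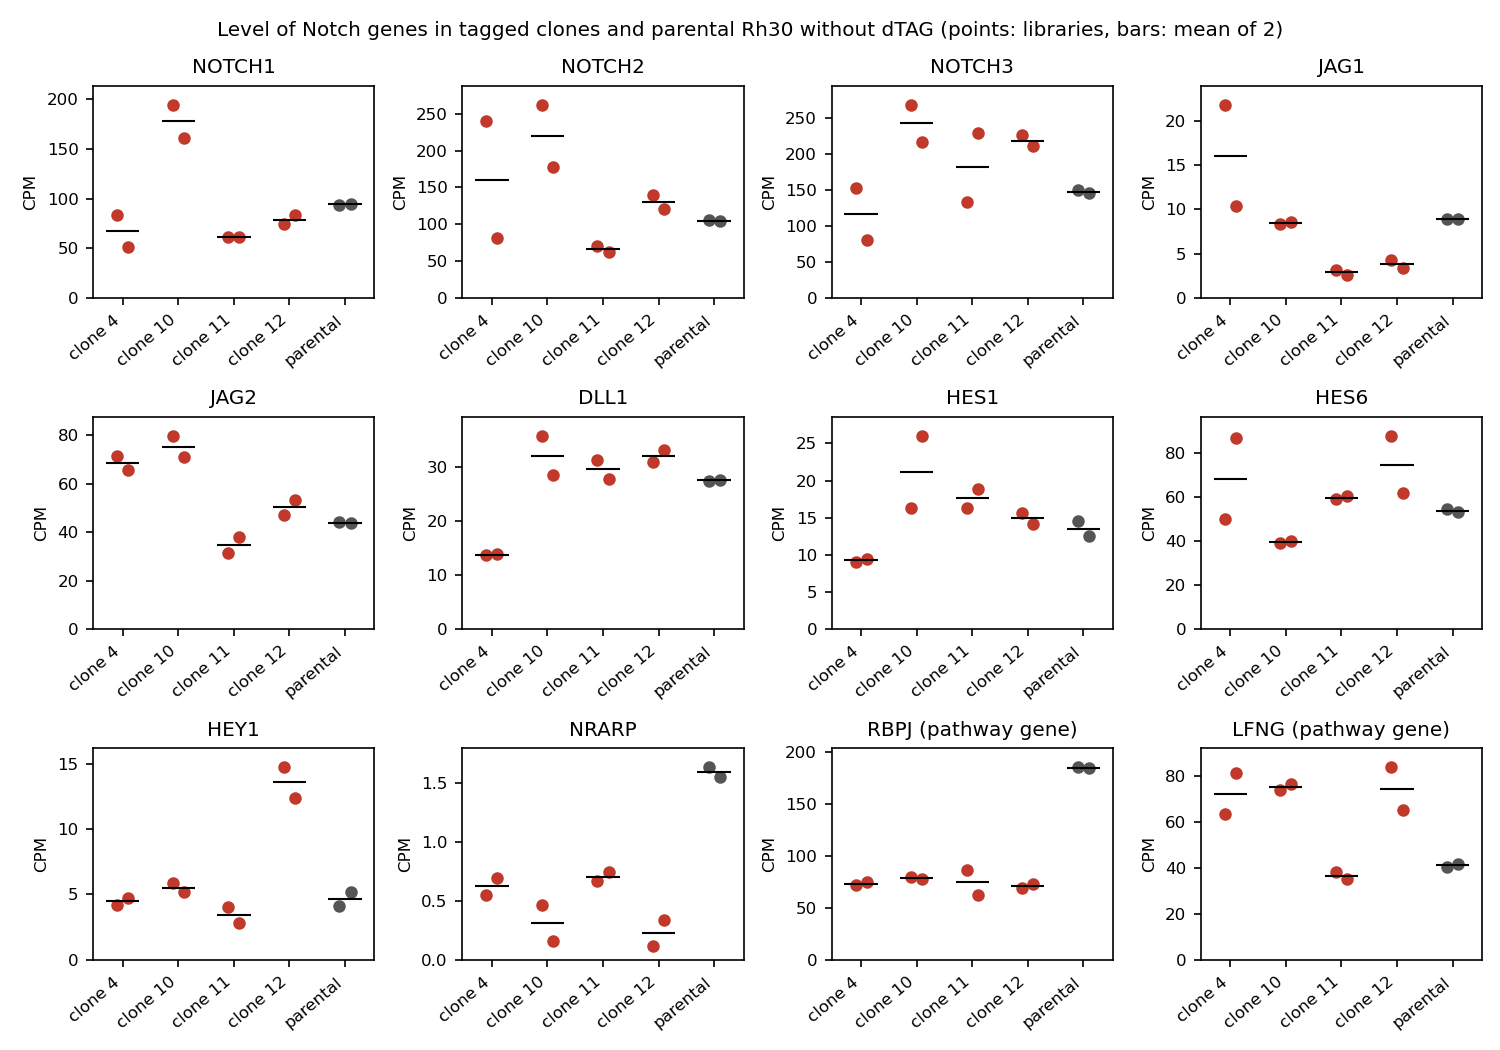
Level in CPM (y axis, from 0) in PAX3-FOXO1-FKBP clones 4, 10, 11 and 12 (red) and parental Rh30 (grey) without dTAG, for the 10 members, RBPJ and LFNG. Points are libraries and bars the mean of 2. NRARP and RBPJ passed as lower in all 4 clones, as did 9.5% of all genes, with RBPJ at 62.8 to 86.5 CPM in the clone libraries. HEY1 is high in clone 12.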

How the data were processed

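Total RNA from Rh30 cells was sequenced. Per the submitters' processing notes the build was hg19 and the tools included Cuffdiff 2.1.1, Bowtie2 and Trimmomatic 0.32, in roles they do not give, and scaling between conditions is not stated. For the time course the authors deposited estimated counts, pooled to a single column for each condition per the file headers. They were rounded for the tests. For the clones they deposited raw counts, a column for each library. Clone 12 columns could be tied to that group but not to single samples. Separate time-course libraries had been assumed in the design, so with pooled columns a rule of size (at least 2-fold, prior count 2, mean of at least 50 normalised counts) and a slope test took the place of a test at each time.

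Tests used edgeR 4.0.16 (R 4.3.3) with TMM scaling and filterByExpr (minimum count 10). In the time course, 138 genes with an exact 0 beside at least 10 counts in another column of the same line were left out as possible failed estimates. A true 0 meets the same rule. So did the B lineage and leukocyte markers that were at 0 in DMSO in the PAX3-FOXO1-FKBP line and present at 2 h. Alternatives were DESeq2 1.42.0, its size factors, column totals, no filter, ranked time, a replicate block, a prior count of 0.5, a GC and length adjustment (mgcv 1.9.3, GENCODE v29 lengths) and leaving out each library or column. The edgeR fits of clone 4 against parental, of the slope in the PAX3-FOXO1-FKBP line and of the difference in slope were run on simulated data. The outcome is not reported here and no result rests on it. The simulated slopes took their levels and spread from the FOXO1-FKBP line, which lacks the B lineage and leukocyte RNA of the 2 h column. Members, gene lists, the slope test and marker lists were chosen with earlier results of these data known. Named genes are the 10 members, further pathway genes that passed or with which a member is compared, and the genes most like each member. Counting intervals cover counting error only.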

Additional observations from a re-analysis of the deposited data

Results flagged for a closer look

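The 2 lines differed in trend for 3 repressor genes, by a test of the difference itself (edgeR). The fitted log2 change over the time course was larger in the PAX3-FOXO1-FKBP line than in the FOXO1-FKBP line by 0.97 for HES6 (adjusted p = 0.0158), by 1.51 for HEY1 (adjusted p = 0.0455) and by 0.99 for HEYL (adjusted p = 0.0140). All 3 differences missed the threshold without the 2 h columns, and all 3 did without the 72 h columns. The 2 h column of the PAX3-FOXO1-FKBP line is the one with the B lineage and leukocyte RNA, whose part was not tested. HES6 and HEY1 began lower in the PAX3-FOXO1-FKBP line, at 36.3 and 3.78 CPM in DMSO, against 83.2 and 24.6 CPM in DMSO in the FOXO1-FKBP line.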

How the results depend on the processing

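Counts of members called in the clones moved with the libraries kept and with the filter. Leaving out 1 library gave 2 to 5 members in clone 4 (4 with all), 3 to 4 in clone 10 (5 with all) and 1 to 2 in clone 11 (3 with all), and the lowest values came without either parental library. These fits assume that a lone library varies like the other groups. Without a filter 7 members passed in clone 4 and 5 in clone 11, and with only the 4 libraries compared 6 passed in clone 12 (3 in the fit of all libraries). With the replicate number as a block 5 members passed in clone 11, 6 in clone 4 and 6 in clone 10. The numbers are not stated to pair samples, deviations correlated at 0.01 to 0.05 between parental and clone libraries of the same number and at 0.18 to 0.55 between clones, and clone 12 shares no number. Leave-one-out ranges crossed 0 for NOTCH2 (-0.42 to 1.13), HES6 (-0.17 to 0.65) and HEY1 (-0.23 to 0.11) in clone 4 and for NOTCH3 (-0.22 to 0.58) and DLL1 (-0.040 to 0.12) in clone 11, none of them called.

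In the time course the trends of 0 members passed in the FOXO1-FKBP line, and 2 (NOTCH2 and HES1) without the 24 h column. The difference between the lines passed for 2 members, and for 0 without the 2 h, 0 without the 6 h and 0 without the 72 h columns. Trends that had not passed changed sign without the 72 h column for NOTCH3 (0.19, against -0.11 with all columns) and JAG1 (-0.35, against 0.20) in the PAX3-FOXO1-FKBP line, for NOTCH2 (0.13, against -0.19), HES1 (-0.090, against 0.28) and HEY1 (-0.070, against 0.090) in the FOXO1-FKBP line, and for JAG1 in the difference (-0.21, against 0.44). Without the 24 h column NOTCH1 (-0.044, against 0.20), NOTCH3 (-0.25, against 0.062) and NRARP (-0.064, against 0.075) did so in the FOXO1-FKBP line, and without the 2 h column HEY1 (-0.0054). The cause was not tested. Over all genes 654 trends passed in the PAX3-FOXO1-FKBP line, 1044 with DESeq2, 1406 without the 24 h and 141 without the 72 h column. In the FOXO1-FKBP line 0 passed, 1204 without the 24 h column. For the difference 292 passed, 557 with DESeq2, 685 without the 24 h columns, and 90, 162 and 50 without those of 2, 6 and 72 h. Without either parental library 3923 to 4818 genes passed per clone, against 6723 to 7454. Scaling by column totals put the median of all genes at -0.11 at 72 h in the PAX3-FOXO1-FKBP line, against -0.01. Pairs of member and time past 2-fold numbered 4 in the PAX3-FOXO1-FKBP line (HEY1 at 6 h, and HES1, HES6 and HEY1 at 72 h). They numbered 0 in the FOXO1-FKBP line. Both counts were the same under every alternative run. Depth limits NRARP most.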
